A study of Mus musculus with 18 samples.

Results

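Of 15705 RAD21 binding sites in mouse splenic B cells, 2533 had a peak in resting cells and in cells stimulated for 96 h but no peak in cells stimulated for 48 h. The sites were chosen by the 3 pooled peak lists, 1 per time point: peaks that shared at least 1 bp were merged into 1 site, and a site was kept when it held a resting and a 96 h pooled peak and no 48 h pooled peak. They made up 51.5% of the 4915 sites found at both ends of the time course. The remaining 2382 sites, with a peak in all 3 pooled lists, are the main comparison. Further sites were found in the resting list only (634) or in the 96 h list only (6990). "Missing at 48 h" means here that no pooled 48 h peak was called, and 2287 of the 2533 sites (90.3%) had no peak in any 48 h replicate either, beside 70.5% of all sites. That share was 97.5% at the resting-only sites and 97.3% at the 96 h-only sites.

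RAD21 is the kleisin subunit of cohesin, the ring-shaped complex that holds sister chromatids together and anchors chromatin loops. In interphase cells most cohesin is found where the zinc finger protein CTCF is bound to its recognition sequence, and loops between such places bring enhancers and promoters together or keep them apart. Stimulation with lipopolysaccharide (LPS) and interleukin-4 (IL-4) drives splenic B cells into division, induces switching of the immunoglobulin heavy chain to IgG1, and carries a part of the cells on towards plasma cells.

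The study asked where cohesin is bound before, during and late in this response. All cells were splenic B cells of C57BL/6 mice (C57BL/6J in the study's methods) aged 8 to 10 weeks, purified on columns, with no genetic change in any group, and each replicate pooled B cells of 12 mice. Resting cells received no stimulus, and the other groups were cultured with 50 µg/ml LPS and 2 ng/ml IL-4 for 48 h or 96 h. At 96 h the study enriched for IgG1-positive cells by negative selection, so that the 96 h cells differ from the 48 h cells in selection as well as in time. Chromatin was precipitated with an antibody to RAD21, with 3 replicates and 3 input controls per time point, and peak lists hold no gene expression by which the cell type could be checked.

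The pooled lists held 5690 peaks in resting cells, 5579 at 48 h and 12806 at 96 h. Replicate lists ranged from 821 to 8579 peaks, and reads per peak are unknown, so intervals on shares below cover the counting of sites only. Replicate 2 at 48 h stood apart. It held 5254 peaks, against 1538 and 1563 in replicates 1 and 3, and gave a peak at 1812 of the 2127 sites found in the 48 h list only. Tandem repeats of short units lay at 65.2% of those 48 h-only sites, and a motif match at 4.28% of them on the chromosomes that served for counting. Its part in the 48 h pooled list touches the comparison with the sites in all 3 lists. For the motif, repeats and the 3 kb upstream of transcription starts, differences are also given without the 48 h pooled peaks found in replicate 2 alone. Its reads remain in the other 48 h pooled peaks.

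The following sequences hold the best motif matches near the centres of named sites, and which bases were bound was not measured. The 20-base motif searched for was built on 1318 sites in all 3 lists, those of the odd-numbered autosomes, and its most frequent bases read NNNNNGNGCCCCCTNGTGGN (N where no base prevailed). Its GC-rich core resembles the known CTCF recognition sequence. Each line gives 30 bases of the mm9 genome, 5′ to 3′ on the strand named, with the best match to the motif in capitals. The first 9 come from the 10 highest-ranking of the 25 sites with a peak in every resting and every 96 h replicate and in no 48 h replicate.
Cstf1 intron 5, chr2:172204005-172204034, - strand: aggaaCTGTGCTGCACCCTAGTGGCctggg
2310045N01Rik coding exon 8, chr8:72690805-72690834, + strand: tgtgaGTTGGGCGCCCCCTGGCGGCcagga
Mical3 intron 5, chr6:120921855-120921884, - strand: tgggtGTCTGGCTCCCCCTGCTGTAgaagg
Bub1b intron 20, chr2:118464008-118464037, - strand: cttgcCAACAGTGCCCTCCAGTGGTgagct
Sp110 intron 9, chr1:87478343-87478372, - strand: agggcCTATGCTTCCCTCTGCTGGAcggtc
Ryr1 intron 87, chr7:29824765-29824794, + strand: gaataCTTGTCTGCCACCTGCCGGAcagtt
Arpp19 intron 2, chr9:74897992-74898021, - strand: cacagATCTACTGCCACCCACTGGCattct
near 6430527G18Rik, chr12:88247494-88247523, + strand: caatgCGCTCGCGCCCCCTACTGCCtggga
Slc6a6 intron 9, chr6:91691320-91691349, + strand: gtggtGGGCACTGCCACCTAGTGTGtaaga
The next 3 are the only sites of the group at which 48 h replicates 1 and 3 both held a peak.
near Zfp3, chr11:70569317-70569346, + strand: cagtcTCTTGGTGCCCCCTTGCGCCcagcc
near Gm2399, chr13:12773047-12773076, + strand: gtggaCCTTGGCGCCATCTGCTGGActttt
Slc1a2 intron 1, chr2:102522515-102522544, - strand: agagtCTGCAGCGCCCCCCGGTGTCagggc
The last 2 lie in genes whose loci the study displayed.
Zfp386 intron 1, chr12:117288097-117288126, - strand: ggctaCAACAGCACCACCTGCTGTTtactc
Pax5 intron 5, chr4:44682544-44682573, + strand: tgggtCAATGGTGCCACCTGGTGGTtggtg

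Nearly all of the sites held this motif. Within 100 bp of the site centre, and counted only on the even-numbered autosomes and chromosome X, a match was found at 1040 of 1118 sites missing at 48 h (93.0%, exact 95% interval 91.4 to 94.4). A match is a score above a level of 9.04 (log2 odds), which about 5% of windows 1 kb away from the sites passed, and 6.26% of such windows on the counted chromosomes had one. The share was 93.6% at sites found in the 96 h list only, a difference of -0.62 points (95% Newcombe interval -2.44 to 1.00). Sites in the resting list only had the motif less often, at 67.0%, a difference of 26.0 points (20.4 to 32.0). On the counted chromosomes the match lay at a median of 18 bp from the site centre. Over all chromosomes, 1199 of 2368 matches were on the + strand. The median best motif score was 17.99 at the sites missing at 48 h and 17.61 at the sites in all 3 lists.

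With all pooled peaks kept, the motif was more frequent at the sites missing at 48 h than at the sites in all 3 lists, and short tandem repeats were rarer. Both differences depended, in size and in sign, on how the peaks of 48 h replicate 2 were treated. The motif share at the sites in all 3 lists was 87.5%, a difference of 5.52 points (3.05 to 8.04). Tandem repeats of at least 20 bases lay within 100 bp of the centre at 60 of the 2533 sites (2.37%), against 6.84% of the sites in all 3 lists, a difference of -4.47 points (-5.68 to -3.32). The low repeat share was not particular to the group. It was 2.37% at the resting-only sites and 3.03% at the 96 h-only sites, a difference of -0.66 points (-1.34 to 0.10) from the latter. Of the windows 1 kb away, 6.51% held a repeat. Against the 1607 sites in all 3 lists with a peak in 48 h replicate 1 or 3, the differences were 4.36 points (1.70 to 7.19) for the motif and -2.36 points (-3.62 to -1.21) for repeats. When the 48 h pooled peaks found in replicate 2 alone were left out, the sites that had only such a peak entered the group, 2649 sites were missing at 48 h, the motif difference was -0.49 points (-2.97 to 2.02) and the repeat difference was 0.11 points (-1.07 to 1.27). The 116 sites in all 3 lists whose only 48 h replicate peak was in replicate 2 had a repeat in 53.4% and the motif in 28.3% of those on the counted chromosomes. GC content and CpG differed little between the classes as a whole. The 200 bp around the centre had a median GC content of 49.5% in both classes, and 5 or more CpG were present at 29.3% and 29.5% of the sites, a difference of -0.14 points (-2.69 to 2.41). Within tertiles of the mean score percentile over both classes, the CpG difference was 6.65 points (1.82 to 11.1) in the lowest, 2.86 points (-1.55 to 7.22) in the middle and 3.72 points (-1.66 to 9.26) in the highest. In the same order the motif difference was 16.6 points (10.4 to 23.6), 6.27 points (1.85 to 10.9) and 4.07 points (-0.60 to 7.42). The repeat difference was -12.0 points (-15.9 to -8.72), -5.19 points (-7.45 to -3.14) and -1.78 points (-3.43 to 0.46). Both were thus largest in the lowest tertile, and both intervals spanned 0 in the highest. These tertile values keep all 48 h pooled peaks. In the lowest tertile 57 of 393 sites in all 3 lists held a repeat. Whether the change with score comes from the peaks of 48 h replicate 2 was not tested.

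**Figure D1:**
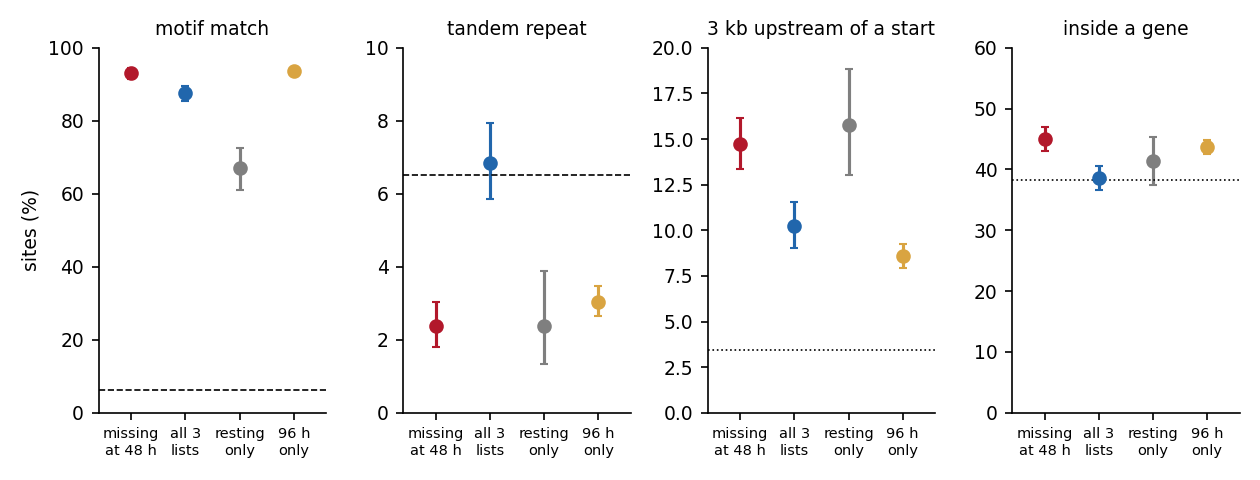
Share of sites, in percent, with a motif match (counted chromosomes), with a tandem repeat, with the centre within 3 kb upstream of a transcription start, and with the centre inside a protein-coding gene, for 4 classes of sites; points are shares with exact 95% intervals, dashed lines are windows 1 kb away, and dotted lines are the share of the sequenced genome. Sites missing at 48 h stood at 93.0%, 2.37%, 14.7% and 45.0%.

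The sites missing at 48 h lay nearer to genes than the sites in all 3 lists. On GENCODE M1 protein-coding models, which are on mm9, 373 of 2533 sites had their centre in the 3 kb before a transcription start (14.7%, exact 95% interval 13.4 to 16.2), which is 4.29 times the share of the sequenced genome that such regions cover. The share was 10.2% at the sites in all 3 lists, a difference of 4.48 points (2.64 to 6.32), and it was 8.58% at the 96 h-only sites and 15.8% at the resting-only sites. The difference from the sites in all 3 lists was 4.21 points (2.37 to 6.04) without the peaks of 48 h replicate 2 alone. Within 1 kb upstream the shares were 7.82% and 4.70%. The median distance from the centre to the nearest transcription start was 13597 bp, against 18792 bp at the sites in all 3 lists.

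Gene bodies were likewise more often the place of a site missing at 48 h. Inside a protein-coding gene lay 45.0% of the sites missing at 48 h and 38.5% of the sites in all 3 lists, a difference of 6.51 points (3.75 to 9.25), while genes cover 38.2% of the sequenced genome. Coding exons held 58 of the sites missing at 48 h (2.29%) and 18 of the sites in all 3 lists (0.756%), a difference of 1.53 points (0.86 to 2.25). The 96 h-only and resting-only sites had shares of 2.22% and 2.05% in coding exons, with differences of 0.07 points (-0.56 to 0.80) and 0.24 points (-1.28 to 1.31). Introns held 40.0% and 36.0% of the sites. The 3 kb downstream of genes held 11.3% and 8.14%, a difference of 3.15 points (1.49 to 4.80). Against the 96 h-only sites the difference inside genes was 1.33 points (-0.93 to 3.59), whose interval spans 0.

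Because the sites missing at 48 h had lower scores, the shares were also compared within tertiles of the mean score percentile. The promoter difference was 5.43 points (1.65 to 8.69) in the lowest tertile, 6.33 points (3.21 to 9.39) in the middle one and 2.56 points (-1.07 to 6.71) in the highest. The difference inside genes was 9.14 points (3.54 to 14.6), 0.72 points (-4.05 to 5.47) and 12.02 points (6.38 to 17.6). Each difference had the same sign in all 3 tertiles, with an interval that spanned 0 in 1 of them.

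By score, these sites ranked below the sites found at all time points. The score percentile of a peak is its rank within its own list, from 0 (lowest) to 100 (highest), since the scale of the score may differ between lists. In the resting list the sites had a median percentile of 41.9 (quartiles 19.9 to 63.2), against 70.7 for the sites in all 3 lists and 21.6 for the resting-only sites. In the 96 h list the median was 60.5 (quartiles 39.2 to 78.4), against 84.4 for the sites in all 3 lists and 34.2 for the 96 h-only sites. Their peaks were also narrower, with median widths of 192 bp in resting cells and 228 bp at 96 h, beside 230 bp and 265 bp. These values describe the choice of sites and are no test of it.

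The share of sites missing at 48 h went down as the score went up. Among the resting and 96 h sites in the lowest decile of the resting list 72.6% were missing at 48 h (exact 95% interval 67.7 to 77.1), and in the highest decile 12.8% (10.1 to 15.8). By deciles of the 96 h list the share went from 85.1% (78.1 to 90.5) to 19.8% (17.4 to 22.3). The group still reached high scores: 26 sites (1.03%) were at or above percentile 90 in both lists, beside 341 (14.3%) of the sites in all 3 lists, and 792 (31.3%) were at or above percentile 50 in both. At the other end, 660 sites (26.1%) were under percentile 50 in both lists, beside 6.00% of the sites in all 3 lists.

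**Figure D2:**
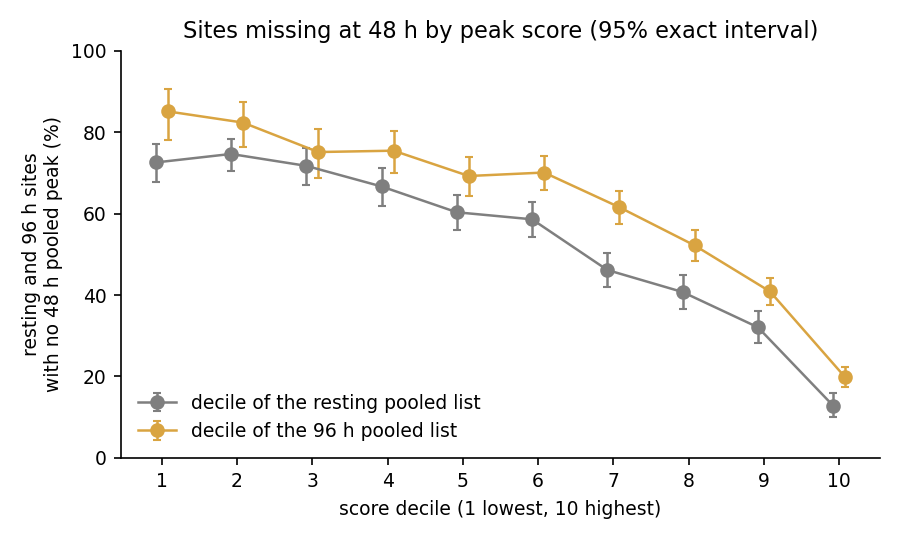
Percent of the 4915 sites in the resting and 96 h pooled lists that had no 48 h pooled peak, by decile of the score in the resting list (grey) or the 96 h list (yellow), with exact 95% intervals. The share fell from 72.6% to 12.8% between the first and last decile of the resting list and from 85.1% to 19.8% in the 96 h list.

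The scores at the beginning and the end of the time course were only loosely related. Over the 2533 sites Spearman's rho between the resting and the 96 h percentile was 0.288, and it was 0.457 over the 2382 sites in all 3 lists. The points of each class come from the same pair of pooled lists and are not replicates. The classes also cover different ranges of score, so their values of rho cannot be set against each other directly. The 96 h percentile was above the resting percentile at 68.8% of the sites missing at 48 h and at 68.9% of the sites in all 3 lists.

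**Figure D3:**
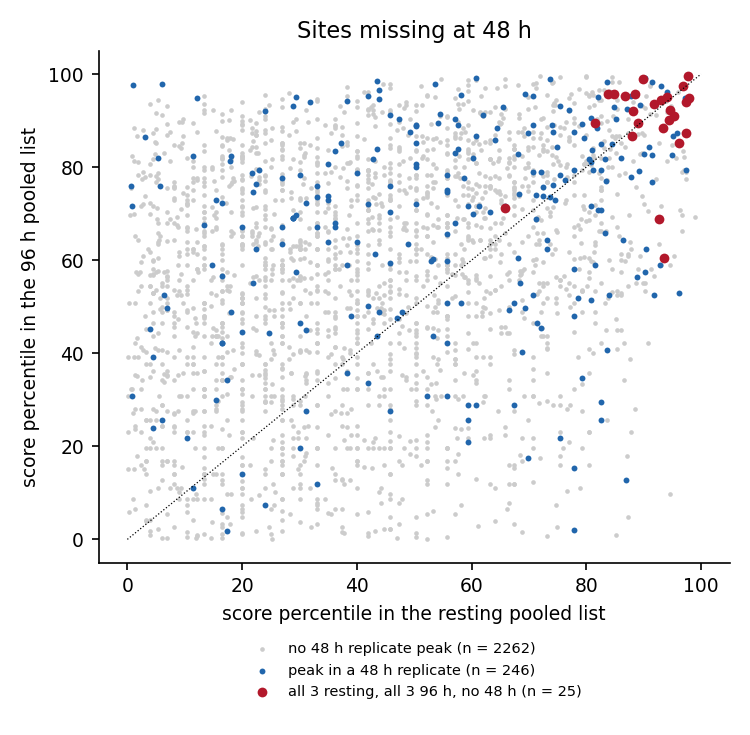
Score percentile in the resting pooled list (x axis) and in the 96 h pooled list (y axis) of the 2533 sites missing at 48 h, coloured by the replicates that held a peak; the dotted line marks equal percentiles. Points fill most of the plane (rho 0.288), and the 25 sites with a peak in all resting and all 96 h replicates and in no 48 h replicate lie towards the upper right corner.

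Replicates 1 and 3 at 48 h rarely held a peak at the sites. Replicate 1 had a peak at 121 of them (4.78%, beside 9.61% of all sites), replicate 2 at 11 (0.434%, beside 15.7%) and replicate 3 at 119 (4.70%, beside 9.79%). A peak in replicate 1 or 3 was present at 237 sites (9.36%, exact 95% interval 8.25 to 10.6, beside 15.3% of all sites), and in both at 3 sites (0.118%, beside 4.08%). The resting-only and 96 h-only sites, which also lack a 48 h pooled peak, had a peak in replicate 1 or 3 less often, at 1.74% and 2.36%. Among the sites in all 3 lists, 1607 (67.5%) had a peak in 48 h replicate 1 or 3 and 591 (24.8%) in both. The peaks that replicates 1 and 3 did hold at the sites missing at 48 h ranked low, at median percentiles of 26.2 and 26.8 within those replicate lists, against 58.3 and 56.8 for the sites in all 3 lists. The rule used the same reads in pooled form, so these counts describe how it worked and nothing is read from them about binding.

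The 237 sites with a peak in 48 h replicate 1 or 3 ranked above the others. Their median percentile was 57.0 in the resting list and 72.9 in the 96 h list, against 40.1 and 58.9 for the 2287 sites with no peak in any 48 h replicate. A motif match was present at 92.4% of the former and 93.6% of the latter, over all chromosomes.

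Replicates of the other time points held peaks at the sites in unequal shares. In resting cells replicates 1, 2 and 3 had a peak at 28.2%, 7.62% and 52.2% of the 2533 sites, and at 96 h the shares were 24.0%, 44.3% and 75.4%. Over all sites the shares were 13.2%, 5.21% and 22.1% in resting cells and 17.8%, 28.9% and 52.7% at 96 h. The replicates with the longest lists covered most sites. All 3 resting replicates held a peak at 89 sites (3.51%, beside 3.42% of all sites), and all 3 96 h replicates at 384 (15.2%, beside 11.9%). No resting replicate held a peak at 911 sites (36.0%, beside 74.1% of all sites and 17.6% of the sites in all 3 lists). No 96 h replicate held one at 440 (17.4%, beside 41.7% and 5.25%). No replicate of any time point held a peak at 189 sites (7.46%, beside 23.9%), which were therefore called from pooled reads alone; they ranked at medians of 19.9 and 24.1. At least 1 resting and at least 1 96 h replicate held a peak at 1380 sites (54.5%, beside 21.6% of all sites and 79.3% of the sites in all 3 lists).

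**Figure D4:**
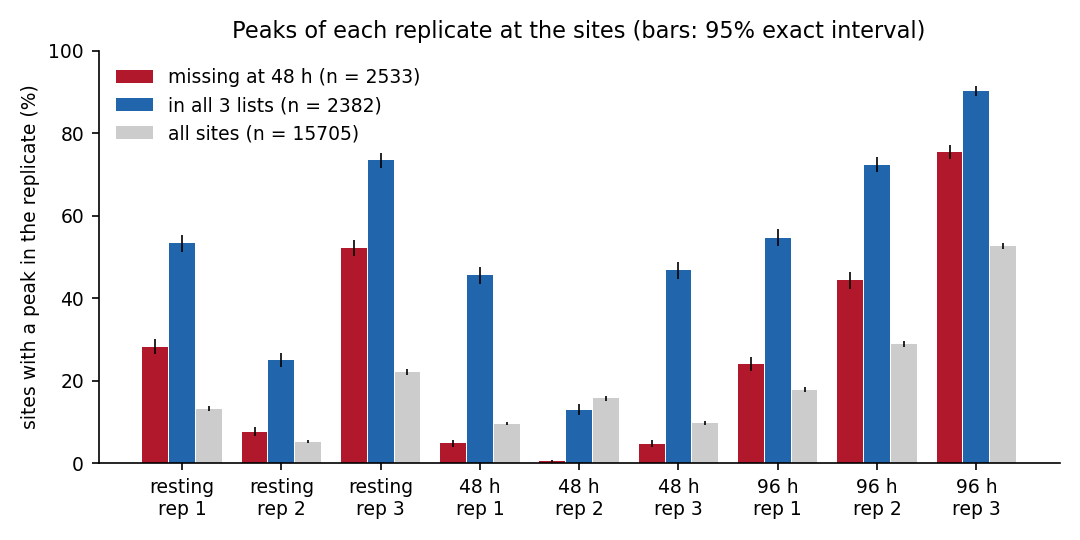
Percent of sites at which each of the 9 replicates held a peak, for the 2533 sites missing at 48 h, the 2382 sites in all 3 lists and all 15705 sites, with exact 95% intervals. At the sites missing at 48 h the 48 h replicates stood at 4.78%, 0.434% and 4.70%, and the 96 h replicates at 24.0%, 44.3% and 75.4%.

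The strictest pattern, a peak in all 3 resting and all 3 96 h replicates and in no 48 h replicate, was met by 25 of the sites missing at 48 h (0.987%, beside 0.357% of all sites). It was also met by 31 of the 2382 sites in all 3 lists, at which only the pooled 48 h reads gave a peak. Their share, 1.30%, was above that of the sites missing at 48 h. Those 31 pooled 48 h peaks had a median percentile of 27.2 and ranged from 0.323 to 71.6. The sites of both sets were alike at the other time points, with resting medians of 93.1 and 93.2 and 96 h medians of 92.3 and 94.0, and with a motif match at 24 of 25 and 30 of 31.

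Among those 25 sites the highest mean percentile belonged to intron 5 of Cstf1 (chr2:172203892-172204192), which codes for a subunit of the cleavage stimulation factor that acts in mRNA 3′ end formation. It stood at percentile 97.7 in the resting pooled list and 99.5 in the 96 h pooled list. Its resting replicates were at 95.1, 38.6 and 90.9 and its 96 h replicates at 86.5, 96.8 and 99.4, so that resting replicate 2 was the low one. The nearest 48 h pooled peak was 431930 bp away.

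The second, in coding exon 8 of 2310045N01Rik (chr8:72690633-72690941), stood at 96.9 and 97.3. Mical3, which codes for an actin-oxidizing monooxygenase, had its site in intron 5 (chr6:120921749-120922052) at 97.8 and 94.9. Its 96 h replicates were at 99.4, 32.7 and 89.4, with replicate 2 the lowest. Bub1b, which codes for the spindle checkpoint kinase BUBR1, had its site in intron 20 (chr2:118463843-118464192) at 97.3 and 93.9. Its 96 h replicates spread from 13.7 in replicate 1 through 71.0 to 96.4 in replicate 3.

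One of the 10 highest-ranking of these 25 sites lay outside genes with no motif match, 25699 bp from the start of Dad1 (chr14:54847638-54848142), a subunit of the oligosaccharyltransferase, and stood at 94.1 and 95.02. The site in intron 9 of Sp110, a nuclear body protein induced by interferon (chr1:87478219-87478513), stood at 89.9 and 98.9, and its resting replicates were at 58.8, 85.9 and 19.2. In Ryr1, the ryanodine receptor calcium channel, the site was in intron 87 (chr7:29824619-29824922) at 93.1 and 94.5. Its 48 h pooled neighbour was 11072 bp away. Arpp19, an inhibitor of the phosphatase PP2A at mitotic entry, held a site in intron 2 (chr9:74897920-74898197) at 94.5 and 92.3. The last 2 were 21711 bp from the start of 6430527G18Rik (chr12:88247312-88247637), at 95.4 and 91.1, and in intron 9 of Slc6a6, the taurine transporter (chr6:91691183-91691448), at 91.8 and 93.6.

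**Figure D5:**
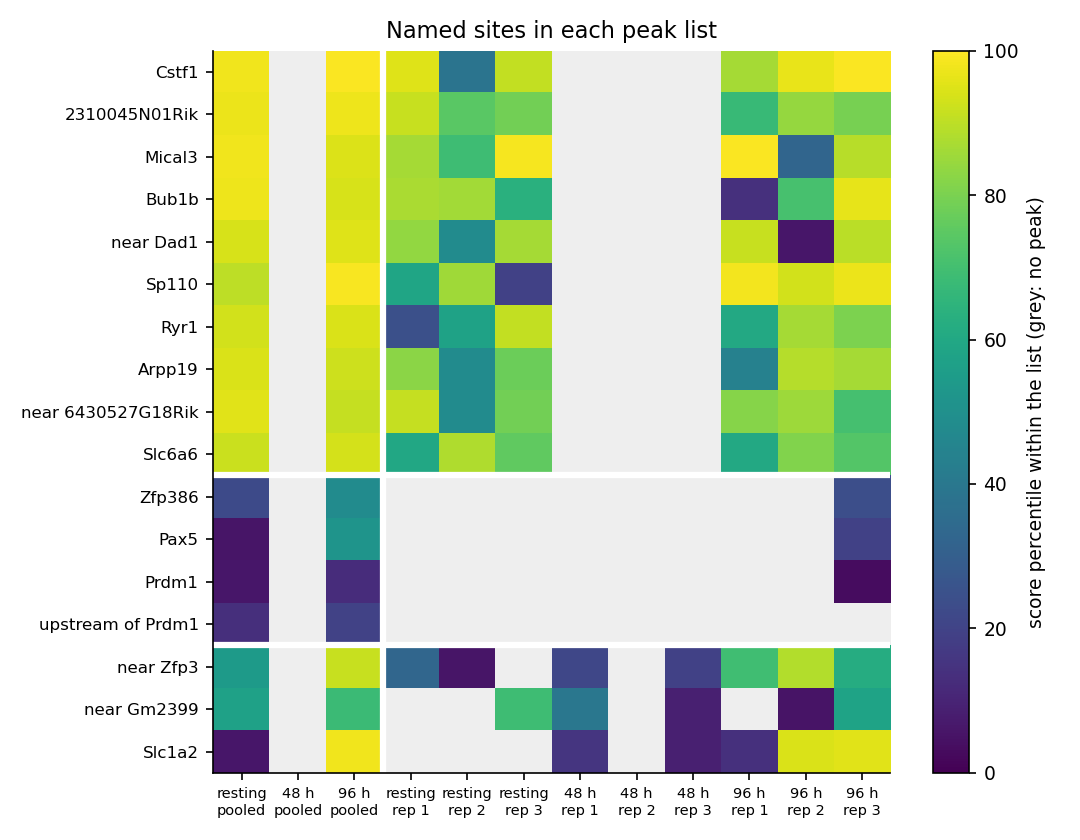
Score percentile within each of the 3 pooled and 9 replicate lists (colour; grey means no peak) for the 10 highest-ranking sites with a peak in all resting, all 96 h and no 48 h replicates, 4 sites at loci the study displayed, and the 3 sites with a peak in 48 h replicates 1 and 3. The first block is at or above percentile 89.9 in the resting and 96 h pooled lists, while in the second block resting replicates hold no peak.

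Only 3 sites had a peak in both 48 h replicates 1 and 3, so all are given. The site 8390 bp from the start of Zfp3, a zinc finger gene (chr11:70569186-70569455), was at percentile 54.5 in the resting list and 91.4 in the 96 h list, and at 21.4 and 19.5 in 48 h replicates 1 and 3. The site 21570 bp from the start of Gm2399 (chr13:12772922-12773195) was at 57.0 and 68.1, and at 39.8 and 8.64 in the 48 h replicates. In intron 1 of Slc1a2, a glutamate transporter (chr2:102522411-102522701), the site was at 6.06 in resting cells with no resting replicate peak, at 97.8 at 96 h, and at 15.5 and 8.64 in the 48 h replicates.

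Genes with a site were counted in 10 lists of genes that act in B cell responses. A site lay inside or within 10 kb of 2359 of 22359 protein-coding genes (10.6%), and of 68 of the 221 listed genes (30.8%). Sites in all 3 lists gave 8.35% and 22.2%. By gene list the share with a site missing at 48 h went from 7.41% (LPS receptor and NF-κB) to 47.4% (homing and adhesion). For sites in all 3 lists it went from 3.85% (class switching and DNA break repair) to 42.3% (B cell receptor and coreceptors). Listed genes were longer, with a median of 22695 bp beside 15121 bp over all genes, and the lists were chosen for this tissue, so the gap between 30.8% and 10.6% is read as a description of the lists. The counts by list below are read in the same way.

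Receptors of the B cell surface come first. Of 26 genes of the B cell receptor and its coreceptors, 12 had a site, among them Bcl10, Cd5, Cd79a, Cr2, Itpr2, Pik3ap1, Plcg2, Prkcb, Ptpn6, Vav1 and Vav2, and 11 had a site in all 3 lists. The site 6704 bp upstream of Cd79a, the Igα chain of the receptor (chr7:25675558-25675834), stood at 94.8 in the resting list and 93.1 in the 96 h list. Resting replicates 1 and 3 had it at 89.3 and 82.9 and 96 h replicates 2 and 3 at 79.95 and 94.3, and no 48 h replicate had it. Plcg2, the phospholipase that the receptor activates, had its site in intron 2 (chr8:120071911-120072211) at 90.3 and 95.3 without a motif match. The site 3280 bp downstream of Cd5 (chr19:10789240-10789466) stood at 44.4 and 91.8, with a peak in every 96 h replicate and in no resting replicate.

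Of 27 genes of the LPS receptor and NF-κB 2 had a site (7.41%, beside 10.6% of all protein-coding genes), and 6 had a site in all 3 lists. Ikbkg, the regulatory subunit of the IκB kinase, had a site in intron 1 (chrX:71658734-71659051) at 19.9 and 83.1. Traf6, an adaptor of toll-like receptor signalling, had a site in intron 6 (chr2:101534109-101534319) at 9.77 and 50.8.

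Of 16 genes of IL-4 receptor signalling and its targets, 5 had a site, namely Il4i1, Il4ra, Jak1, Socs1 and Socs3, and 6 had a site in all 3 lists. The site 2086 bp downstream of Il4ra, the receptor chain itself (chr7:132724938-132725206), stood at 72.2 and 45.4. Jak1, a kinase bound to the receptor, had a site in intron 11 (chr4:100840859-100841105) at 55.7 and 60.5. The site in intron 1 of Il4i1, an amino acid oxidase induced by IL-4 (chr7:52080305-52080566), stood apart, at 94.6 in the resting list with a peak in all 3 resting replicates and at 9.78 in the 96 h list with no 96 h replicate peak.

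Among 22 transcription factors of B cell identity 9 had a site, namely Bach2, Bcl11a, Bcl6, Foxp1, Ikzf1, Mef2c, Pax5, Pou2f2 and Runx1, and 9 had a site in all 3 lists. Runx1 had its highest-ranking site in intron 2 (chr16:92698948-92699219), at 76.4 in resting cells and 89.6 at 96 h. Ikzf1, which codes for Ikaros, had a site in intron 4 (chr11:11642796-11643108) at 76.4 and 72.9, with all 3 resting replicates and 2 96 h replicates. A 48 h pooled peak lay 2505 bp from it. The site 799 bp upstream of Pou2f2, which codes for OCT2 (chr7:25918179-25918433), was at 79.6 and 60.8.

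Of 18 genes of plasma cell differentiation and secretion 8 had a site, namely Cd38, Creb3l2, Ern1, Hspa5, Igj, Prdm1, Sdc1 and Tnfrsf13b, beside 3 with a site in all 3 lists. The site 2642 bp downstream of Ern1, the IRE1α sensor of the unfolded protein response (chr11:106253187-106253456), stood at 76.1 and 88.3. The site 8450 bp upstream of Sdc1, the plasma cell marker CD138 (chr12:8769558-8769799), stood at 67.5 and 71.7, with a peak in 96 h replicate 3 alone and no motif match. Creb3l2, a membrane-bound transcription factor, had a site in intron 7 (chr6:37304565-37304782) at 57.0 and 66.2.

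Among 26 genes of class switching and DNA break repair 4 had a site (15.4%, beside 10.6% of all protein-coding genes), among them Apex2, Lig4 and Mdc1. Of the 26, 1 had a site in all 3 lists. The site 8655 bp downstream of Apex2, an endonuclease of base excision repair (chrX:146945292-146945522), was at 45.9 and 58.9. Lig4, the ligase of end joining, had its site in intron 1 (chr8:9976497-9976671) at 33.1 and 62.3, and no replicate of any time point held a peak there. Neither the Apex2 nor the Lig4 site had a motif match.

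Of 30 genes of the cell cycle and DNA replication 8 had a site, namely Ccnd3, Cdc6, Cdk6, Cdkn1a, Mcm6, Myc, Pcna and Rb1, beside 5 with a site in all 3 lists. Ccnd3, a D-type cyclin, had a site in intron 1 (chr17:47648150-47648434) at 81.6 and 89.6, with peaks in all resting and all 96 h replicates and in no 48 h replicate. Cdkn1a, the p21 inhibitor of cyclin-dependent kinases, had a site in intron 1 (chr17:29232381-29232707) at 61.7 and 95.3. The site 1942 bp upstream of Myc (chr15:61814843-61815164) was at 78.8 and 66.7.

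Of 18 genes of cohesin, its loader and CTCF 4 had a site, namely Nipbl, Pds5a, Smc3 and Stag1, beside 1 with a site in all 3 lists. The site 6765 bp upstream of Nipbl, the loader (chr15:8401096-8401359), was at 75.5 and 55.7. Pds5a, a cohesin regulator, had a site in untranslated exon 2 (chr5:66088050-66088266) at 54.2 and 58.9. The site 3123 bp downstream of Smc3, a subunit of the ring (chr19:53723318-53723573), was at 8.13 and 75.4, with no peak in a resting replicate.

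Of 19 genes of homing and adhesion 9 had a site, among them Ccr6, Cnr2, Cxcr4, Cxcr5, Icam1, Itga4, Itgb7 and S1pr1, beside 5 with a site in all 3 lists. Itgb7, the integrin β7 chain, had a site in coding exon 3 (chr15:102054927-102055213) at 77.0 and 92.1. The site 114 bp upstream of Itga4, the α4 chain that pairs with it (chr2:79095299-79095639), was at 64.5 and 88.4, and 48 h replicate 1 held a peak there at percentile 15.5. The site 5311 bp upstream of Cnr2, a cannabinoid receptor of B cells (chr4:135445854-135446142), was at 85.4 and 67.2.

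Of 19 genes of MHC class II and costimulation 7 had a site, namely Ciita, H2-Aa, H2-Ab1, H2-DMa, H2-DMb2, H2-Eb1 and Icosl, beside 2 with a site in all 3 lists. The 7 genes shared 5 sites. H2-DMa, which helps load peptides, had a site in untranslated exon 1 (chr17:34272250-34272530), 263 bp from its start, at 94.1 and 91.9. Its resting replicates 1 and 3 were at 63.9 and 83.2 and its 96 h replicates at 34.0, 51.9 and 90.1, with no peak in a 48 h replicate. Ciita, the master regulator of class II genes, had a site in intron 15 (chr16:10521349-10521592) at 16.5 and 84.5, with no peak in a resting replicate. Icosl, the ligand of ICOS, had a site in intron 1 (chr10:77532344-77532599) at 60.8 and 39.2.

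Of the loci the study displayed, 3 are given here, and each had a site missing at 48 h with little replicate support. In intron 1 of Zfp386, a zinc finger gene next to the heavy chain locus (chr12:117288018-117288226), the site was at 22.4 in the resting list and 48.1 in the 96 h list. In intron 5 of Pax5, the factor that maintains B cell identity (chr4:44682441-44682660), it was at 5.63 and 51.9, with a 48 h pooled peak 2898 bp away. Prdm1, which codes for BLIMP-1, the driver of plasma cell fate, had a pair of sites. The first, in untranslated exon 1 and 12 bp from the start (chr10:44178365-44178596), was at 6.06 and 12.8, and the second, 1601 bp upstream (chr10:44180065-44180244), at 13.4 and 19.7 with no replicate peak at all. Neither had a motif match. No resting replicate held a peak at any of these 4 sites, and of the 96 h replicates only replicate 3 held one, at 3 of them.

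Along the chromosomes the sites missing at 48 h were mixed with the sites in all 3 lists. The next resting and 96 h site along the chromosome was also missing at 48 h in 51.7% of cases, beside 51.5% of such sites in all. The nearest other resting or 96 h site lay at a median of 25955 bp, and 152 sites (6.01%) were within 10 kb of a site in all 3 lists. Chromosomes 1 to 19 ranged from 44.3% missing at 48 h on chromosome 12 to 54.3% on chromosome 10.

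Chromosome X stood above this range, with 46 of 61 sites missing at 48 h (75.4%, exact 95% interval 62.7 to 85.5), which is 24.2 points more than the 51.2% of chromosomes 1 to 19 (12.02 to 33.4). X was picked out after the values of all chromosomes were seen. Scores moved with it: the 61 sites had median percentiles of 40.1 in the resting list and 55.7 in the 96 h list, against 55.7 and 74.0 on chromosomes 1 to 19. Among sites with a mean percentile of at least 50, 17 of 25 on X (68.0%, 46.5 to 85.1) and 38.6% of 3199 on chromosomes 1 to 19 were missing at 48 h. Under 50, the shares were 80.6% of 36 (64.0 to 91.8) and 75.7%. Chromosome Y held 34 of all sites, and the 2 of them in the resting and 96 h lists were both missing at 48 h. The sex of the mice is not given in the sources used here.

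At the edges of the rule, 1 site had a 48 h pooled peak within 100 bp, 13 within 500 bp and 132 within 5000 bp. The closest was in intron 3 of Ttll11 (chr2:35762048-35762317), 5 bp from a 48 h peak. The lowest mean percentile, 2.37, belonged to a site 150065 bp from the start of Cdk6 (chr5:3193732-3193924), with no peak in any replicate. Just inside the other class, 281 of the 2382 sites in all 3 lists had their 48 h peak in the lowest decile of the 48 h list. The lowest of their 48 h scores was 4.01, beside 4.00 for the list as a whole, and in 6 of them the 48 h peak overlapped the others by under 50 bp.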

How the data were processed

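Peak lists of RAD21 ChIP-seq were used, 1 per replicate (9) and 1 per time point from pooled reads (3). Per the methods, the authors aligned reads to mm9 with Bowtie2, thinned every library to the same count of distinct positions, merged replicates into pooled samples, and called peaks with MACS 2 against input. The deposited files give each peak's position and a score, whose statistic is not given in the sources used here, so ranks within a list were used. Raw scores served only for the score minimum among the alternatives and for the lowest 48 h scores at the edges of the rule. Pooled and replicate lists share reads, so presence and score were described without a test. Sequence, annotation and position were compared by shares with exact (Clopper-Pearson) and Newcombe 95% intervals, for which sites count as independent. Gene models were GENCODE M1 protein-coding transcripts, and 4 listed symbols were matched by an older RefSeq symbol. Named sites were the 10 highest-ranking with all resting, all 96 h and no 48 h replicates, up to 3 per gene list, those in 48 h replicates 1 and 3, those at displayed loci, and the edges; some genes are not reported here. Members and lists were chosen with earlier results of these data known. Sequences were read with pysam 0.24.0 and intervals computed with scipy 1.17.1, and scripts were tested on simulated data.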

Additional observations from a re-analysis of the deposited data

How the results depend on the processing

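No paired analysis was possible because no result comes from a test between samples. Scores have no common scale and reads per peak are unknown, so weak binding at 48 h cannot be told apart from none, and the cause of the changes below was not tested unless the alternative's construction gives it. With each list limited to 5579 peaks, 1404 sites were missing at 48 h, 11.97% had a peak in 48 h replicate 1 or 3, the median percentiles were 50.3 (resting) and 76.7 (96 h), and the shares were 94.9% (motif), 13.2% (3 kb upstream) and 43.1% (inside a gene). Percentiles here and under the other alternatives are ranks in the full lists, so leaving out low-scoring peaks tends to raise the medians by construction. With a score minimum of 15.02 in all lists these were 51.5% with a 48 h replicate peak, medians of 76.1 and 83.9, and 94.6%, 12.6% and 40.5%, since weaker 48 h peaks were dropped, and the differences from the sites in all 3 lists were 32.3 points (motif) and -21.8 points (repeat). That minimum is the median raw score of the resting list, so it may cut lists of different scale unequally. With an overlap of 50% of both peaks the replicate share was 18.5% and the medians 47.8 and 66.2. With resting and 96 h pooled peaks kept only if found in at least 1 of their replicates, 1380 sites remained. All 48 h pooled peaks were kept in this setting. The replicate share was 12.2%, the medians were 57.7 and 69.3, and the motif difference from the sites in all 3 lists was 2.44 points (-0.54 to 5.28). Requiring no 48 h replicate peak set the replicate share to 0 by construction. The motif share was 71.3% at the level passed by 1% of windows and 87.1% within 50 bp, repeats of at least 30 bases were at 1.03%, 1 kb upstream gave 7.82%, and any overlap gave 47.1% inside a gene.

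Leaving out the pooled peaks that 1 replicate alone supported gave 1711 to 2995 sites, 8.98% to 23.3% with a peak in 48 h replicate 1 or 3, medians of 40.1 to 45.9 (resting) and 60.5 to 68.7 (96 h), and shares of 90.1% to 93.6% (motif), 2.10% to 4.57% (repeat), 13.8% to 14.8% (3 kb upstream) and 43.7% to 45.8% (inside a gene). The 23.3% came from 48 h replicate 1, with 23.2% for 48 h replicate 3, since sites with that replicate's peak then enter the group. Over these settings the differences from the sites in all 3 lists ranged from -0.49 to 8.35 points (motif) and from -6.06 to 0.11 points (repeat). Without the pooled peaks of 48 h replicate 2 alone, the sites with only such a 48 h peak enter the group, and the repeat share was 4.57%. Both differences then turned sign, to -0.49 and 0.11 points. With all pooled peaks kept, the differences from the sites in all 3 lists with a peak in 48 h replicate 1 or 3 were 4.36 and -2.36 points. The differences 3 kb upstream and inside a gene stayed above 0 under all alternatives tried, at 1.75 to 4.62 and 4.32 to 8.06 points, with an interval that spanned 0 for the score minimum only.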

Other observations

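Some genes held several of the sites missing at 48 h, and they were chosen here after the counts were seen. Setd1b, which codes for a histone H3 lysine 4 methyltransferase, had 4 such sites inside or within 10 kb of its 25243 bp and 1 site in all 3 lists. Hdac7, a histone deacetylase, Hook2, a microtubule linker, and Hint1, a nucleotide hydrolase, had 3 each and no site in all 3 lists, over gene lengths of 51839, 12770 and 4119 bp. The highest counts, 8 in Gm20388 and 5 in Fgfr2, belong to gene models of 4434882 and 3009069 bp in this annotation.

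Farther than 100 kb from any transcription start lay 156 of the 2533 sites (6.16%), beside 9.49% of the sites in all 3 lists, 11.3% of the 96 h-only sites and 39.3% of the 48 h-only sites.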
